A study of Mus musculus with 6 samples.

Results

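The proteins of the ribosome were followed in the livers of C57BL/6J mice, an inbred laboratory strain, fed either a control diet or a high-fat diet. Members are the probe sets whose platform annotation names 1 gene symbol of a cytosolic ribosomal protein (Rpl or Rps and a digit, or Rplp) or of a mitochondrial one (Mrpl or Mrps), without the Rps6k kinases. The rule found 226 probe sets of 122 genes, among 12393 genes with such a probe set in the series. Of these, 99 probe sets of 48 genes were cytosolic and 127 of 74 genes mitochondrial. A probe set is the group of short probes that reports 1 transcript, and a gene can have several. The series holds 6 Affymetrix arrays of total liver RNA, with 1 array for each diet at weeks 2, 4 and 10 of feeding, so within a week there is no replicate of a diet. Age, sex, the composition of the diets and the number of mice behind an array are not given in the labels, and no group carries an allele or a drug. Week 4 was run on a larger array design that holds all probe sets of the design of weeks 2 and 10, and the 2 tables were scaled separately, so the diets were compared within a week.

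The cytosolic ribosome is built from a small 40S and a large 60S subunit and translates messages of the nucleus. The mitochondrial ribosome, of a 28S and a 39S subunit, translates the few messages of the mitochondrial genome, whose products are core subunits of the respiratory chain. Both sets of proteins are encoded in the nucleus. Messages of cytosolic ribosomal proteins are among the most abundant of liver and begin with a tract of pyrimidines (C or T), through which the kinase complex mTORC1 controls their translation in response to nutrients and insulin. That control acts mostly on translation and is not measured by an array of RNA levels.

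The start regions show how the cytosolic and mitochondrial genes differ in sequence. RefSeq windows from 250 bases before to 50 after the start (GRCm38.p6) were matched by symbol for 106 of the 122 genes, 41 cytosolic genes with 49 windows and 65 mitochondrial genes with 71. Shown are 70 bases, 50 before the start and 20 from it on, of 5 cytosolic and 4 mitochondrial genes whose values are described below, on the strand of the gene. Capitals mark CCGGAAG, TCGCGAGA, GCATGCGC or AAGATGGC on either strand, or a run of at least 8 C or T from 10 bases before the start on.
Rps10, chr17:27635225-27635294, minus strand: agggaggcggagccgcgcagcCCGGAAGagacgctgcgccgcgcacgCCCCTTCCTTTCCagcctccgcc
Rpl13a, chr7:45128726-45128795, minus strand: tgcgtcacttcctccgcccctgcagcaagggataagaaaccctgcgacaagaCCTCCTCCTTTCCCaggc
Rps28, chr17:33824543-33824612, minus strand: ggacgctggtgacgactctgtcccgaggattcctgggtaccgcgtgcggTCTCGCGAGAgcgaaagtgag
Rpl11, chr4:136053374-136053443, minus strand: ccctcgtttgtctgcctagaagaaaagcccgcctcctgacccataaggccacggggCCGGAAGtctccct
Rpl37a, chr1:72711210-72711279, plus strand: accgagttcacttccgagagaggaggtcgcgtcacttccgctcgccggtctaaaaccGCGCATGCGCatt
Mrps2, chr2:28468016-28468085, plus strand: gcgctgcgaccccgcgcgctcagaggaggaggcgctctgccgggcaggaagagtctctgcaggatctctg
Mrpl10, chr11:97041532-97041601, plus strand: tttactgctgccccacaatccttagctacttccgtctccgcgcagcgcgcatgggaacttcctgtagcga
Mrps9, chr1:42851183-42851252, plus strand: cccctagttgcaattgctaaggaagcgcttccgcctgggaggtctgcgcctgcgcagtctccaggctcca
Mrpl1, chr5:96210065-96210134, plus strand: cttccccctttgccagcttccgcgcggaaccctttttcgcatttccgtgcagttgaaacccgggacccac

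The pyrimidine run was 13 bases long in Rps10 and 14 in Rpl13a. A run of at least 8 C or T from 10 bases before to 20 after the start was found in 34.7% of cytosolic windows, 8.45% of mitochondrial windows and 11.2% of all 32851 windows of the table. The letters CTTTCC on the gene's strand in the same stretch, which can lie within such a run, were found in 12.2%, 1.41% and 1.28%. Over the whole window of 300 bases and both strands, TCGCGAGA was held by 20.4% of cytosolic, 1.41% of mitochondrial and 0.995% of all windows. CCGGAAG, the core letters bound by ETS-family factors, was common to both groups, at 40.8% of cytosolic and 33.8% of mitochondrial windows against 8.86% of all. AAGATGGC, found in sites of the factor YY1, was held by 8.16%, 15.5% and 2.75%, and GCATGCGC, letters of the NRF1 site, by 4.08%, 11.3% and 2.71%. CCAAT was held by 26.5%, 39.4% and 37.4%, and TATAAA on the gene's strand by 10.2%, 5.63% and 8.32%. A match describes the letters and is no measured binding.

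Values below are the deposited signal intensities after each array was centred on its median, as linear signals or on the log2 scale, and a difference is the high-fat minus the control array of the same week in log2 units. Signals under 154.4, the floor, were set to it, and a difference with a side at the floor is a bound. Tested were the probe sets with a signal over the floor on 3 or more arrays, 14533 in all, with 195 of the 226 members. They are 83 cytosolic probe sets of 43 genes and 112 mitochondrial probe sets of 74 genes. The 5 cytosolic genes without a tested probe set are Rpl12, Rpl14, Rpl3l, Rpl39l and Rps15a-ps6. Above the floor on all 6 arrays were 180 members. The arrays differed in RNA quality, with a 3'/5' ratio of beta-actin from 1.17 to 2.35, and that of pyruvate carboxylase, a liver enzyme with a long message, went from 3.82 (control) to 9.64 (high-fat) at week 2, from 4.26 to 7.78 at week 4, and from 4.01 to 2.39 at week 10. RNAs added as controls set 1 array apart, that of the control diet at week 10, with a signal of 26930 for bioD and 67390 for cre, beside 4010 to 8207 and 14790 to 22620 elsewhere, so every difference of week 10 below includes that array. Hepatocyte markers were lower on the high-fat array for 5 of 5 genes at every week. Their mean log2 level was 15.21 to 15.91 under the control and 14.52 to 15.52 under the high-fat diet. The median differences were -0.25, -0.92 and -0.48 at weeks 2, 4 and 10. Non-member probe sets of similar signal were also lower, with medians of -0.10, -0.67 and -0.25. Relative to these, the hepatocyte medians were -0.15, -0.25 and -0.23. Most of the hepatocyte value of week 4 was thus shared by probe sets as bright. Macrophage and Kupffer cell markers were higher for 12 of 12 genes at week 10 (median difference 0.73), against 3 of 12 at week 2 and 6 of 12 at week 4. Their mean log2 level was 9.94 to 11.18 under the control and 10.36 to 11.07 under the high-fat diet. Lymphocyte markers were higher for 5 of 5 tested genes at week 10 (median 0.40), with Cd3d and Ltb at the floor on all arrays. Endothelial markers (5 of 5, median 0.44), stellate and fibroblast markers (5 of 6, median 0.38) and neutrophil markers (3 of 3, median 0.55) were also higher there. No bile duct marker was tested, and Krt7 and Epcam were at the floor on all arrays. In bulk tissue, fewer cells of a type and less RNA per cell cannot be told apart, and the part of RNA quality, of the control array of week 10 or of cell makeup in the differences below was not tested.

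The first question was whether the 2 groups differed between the diets at each week. Cytosolic probe sets were lower on the high-fat array in the median at every week, with -0.15 at week 2, -0.40 at week 4 and -0.20 at week 10. Mitochondrial probe sets lay close to all tested probe sets, with medians of -0.04, -0.08 and 0.01 against -0.04, 0.00 and 0.01 for all tested. Lower on the high-fat array were 56, 67 and 59 of the 83 cytosolic probe sets at weeks 2, 4 and 10, and 62, 66 and 56 of the 112 mitochondrial ones. Of all 14533 tested, 7845, 6661 and 6952 were lower, and 2791 had a difference of 0 at week 4. With 1 array per diet and week, none of these differences has a test within a week. The spread between members was wide beside the medians. The SD over the 83 cytosolic probe sets was 0.36, 0.35 and 0.38, and that over the mitochondrial ones 0.34, 0.27 and 0.44.

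**Figure D1:**
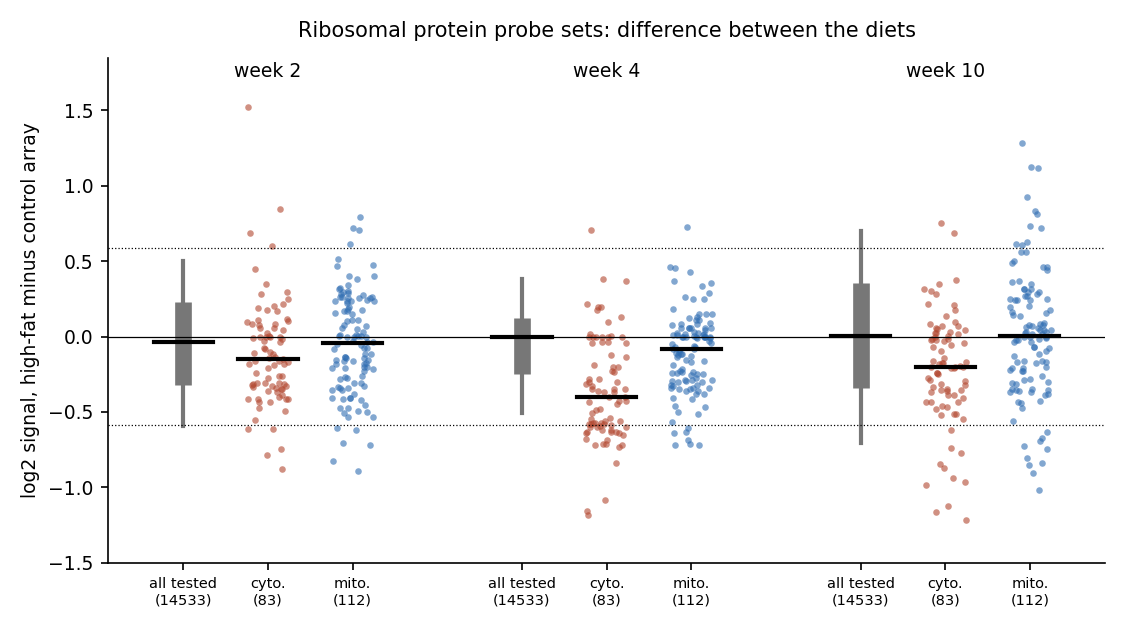
Difference between the diets (log2 signal, high-fat minus control array) for each tested probe set of cytosolic and mitochondrial ribosomal proteins at weeks 2, 4 and 10. Points are probe sets, black bars are medians, grey boxes and lines give the interquartile range and the 10th to 90th percentile of all 14533 tested probe sets, and dotted lines mark 1.5-fold. The cytosolic median of week 4, at -0.40, lies lowest, and the mitochondrial points scatter about 0.

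Lower by 1.5-fold or more under the high-fat diet were 5 of 83 cytosolic probe sets at week 2, where 10.2% of all tested were, 24 at week 4 (7.27% of all) and 11 at week 10 (13.6% of all). These are 6.02%, 28.9% and 13.3% of the cytosolic probe sets, so week 4 alone lies above the share of all tested. At least 1.5-fold higher were 4, 1 and 2 cytosolic probe sets, beside 7.38%, 4.46% and 14% of all tested. Of the 112 mitochondrial probe sets, 6, 7 and 10 were at least 1.5-fold lower (5.36%, 6.25% and 8.93%) and 4, 1 and 11 higher (3.57%, 0.893% and 9.82%). The mitochondrial shares lay below those of all tested probe sets in both directions at every week.

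Most cytosolic probe sets are among the brightest on the arrays, so the differences were also set against brightness. Of the 83, 63 lay in the brightest of 10 equal bands at week 2, against 1 of 112 mitochondrial probe sets, and 65 against 5 did at week 4. At week 4 the 1434 other probe sets of that band had a median of -0.32, so bright probe sets that are no members were also lower in the median. Each member was therefore set against its neighbours, the 200 non-member probe sets nearest to it in mean log2 signal on the 2 arrays of the week. Non-members, in the band and among the neighbours, include probe sets that carry several symbols with a ribosomal protein among them. Of that kind 94 were tested, with a median of -0.44 at week 4. The median over the cytosolic members of these neighbours' medians was -0.02, -0.40 and -0.05 at weeks 2, 4 and 10. Relative to them, the cytosolic median was -0.12 at week 2, 0.00 at week 4 and -0.16 at week 10. The mitochondrial median was -0.07, -0.06 and -0.02. The low cytosolic values of week 4 were shared by non-member probe sets as bright. Of these, 22.7% on average were at least 1.5-fold lower, beside 28.9% of the members. At weeks 2 and 10 a difference was left in the median, while the shares past 1.5-fold were close. At least 1.5-fold lower were 6.02% of the members at week 2, beside 4.6% of neighbours on average. At week 10 it was 13.3% beside 13.9%. At those weeks 51 and 56 of 83 cytosolic members lay below their neighbours' median, and 41 of 83 did at week 4. The cytosolic median of week 4 was also 0.00 with quantile normalization and with a loess correction for brightness.

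**Figure D2:**
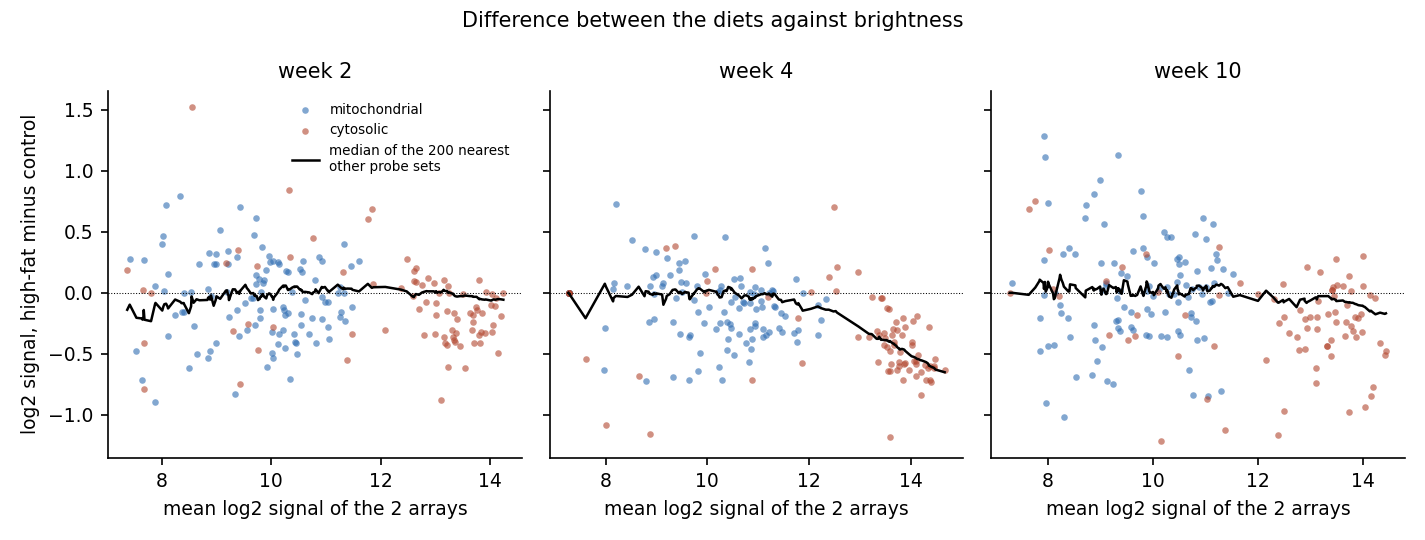
Difference between the diets (log2 signal, high-fat minus control) against the mean log2 signal of the 2 arrays, 1 panel a week; points are tested members and the line is the median of the 200 nearest other probe sets. At week 4 the line itself falls at high signal and the cytosolic points follow it, while at weeks 2 and 10 many cytosolic points lie below a flatter line.

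The repeat over the 3 weeks allows a test. With limma, diet was fitted over all 6 arrays with week as a block, and p-values were adjusted over all 14533 probe sets with the Benjamini-Hochberg method. Standard errors below come from this fit, which moves each towards a value pooled over all tested probe sets. No member passed an adjusted p of 0.05, and 2 of 14533 probe sets did (0.0138%), those of Krt23 and Dbp. The smallest adjusted p of a member was 0.993. At an unadjusted p under 0.05 were 3 cytosolic probe sets and 1 mitochondrial one, all lower on the high-fat diet, or 3.61% and 0.893% of their groups beside 4.03% of all tested. The cytosolic count moved with the arrays used. Without week 10 it was 11 (13.3%, beside 8.93% of all). Without week 2 it was 5 (6.02%, beside 4.69%), and without week 4 it was 0 (beside 3.77%). With trend and robust it was 7 (8.43%, beside 4.11%), and at the 60th percentile floor 7 of 78 (8.97%, beside 4.53%). With no filter it was 14 of 99 (14.1%, beside 3.49%). After quantile normalization, loess, at the 20th percentile floor or with no week block it was 0 or 1. There 0.667% to 4.41% of all were at such a p. None of the other settings tried gave a called member, with 0 to 10 probe sets called among all. The median of the mean differences over the weeks was -0.26 for the cytosolic and -0.03 for the mitochondrial group, and -0.03 for all tested. Lower at all 3 weeks were 35 of the 83 cytosolic probe sets and higher 1, where 11.7% and 8.24% of all tested were. Relative to similar brightness this was 13 lower and 0 higher. Of the mitochondrial probe sets, 17 (15.2%) were lower and 14 (12.5%) higher at all 3 weeks, or 21 and 12 relative to similar brightness. For the counts relative to similar brightness no share over all tested was taken, so they have no background beside them. Across the cytosolic probe sets, the difference of week 10 correlated with that of week 2 at r = -0.32 and with that of week 4 at r = -0.11, and weeks 2 and 4 at r = 0.30. The order of the probe sets at week 2 was thus not kept at week 10. These r describe probe sets, which share arrays and often a gene.

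The 4 subunits, assigned by the gene symbol alone, were compared next. Relative to similar brightness, the median of the 40 tested 60S probe sets was -0.20, -0.02 and -0.15 at weeks 2, 4 and 10, and that of the 43 40S probe sets -0.01, 0.00 and -0.16. At week 2 the 60S median lay below the 40S one, and at week 10 they were alike. The 76 probe sets with Mrpl symbols, taken as 39S, had -0.06, -0.10 and 0.03, and the 36 with Mrps symbols, taken as 28S, -0.07, -0.02 and -0.07. The latter include Mrps18a, Mrps30 and Mrps36, whose place in the 28S subunit was not checked. These medians have no test, and they are smaller than the spread between the probe sets of a subunit.

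Among 60S proteins, Rpl11 had the largest lower value of week 2. Rpl11 joins Rpl5 and the 5S ribosomal RNA in the central protuberance and, when free, binds the p53 regulator Mdm2. Its signal went from 11970 on the control to 6518 on the high-fat array at week 2, from 15000 to 9622 at week 4, and from 8138 to 7028 at week 10. It was lower on the high-fat array of each week, with differences of -0.88, -0.64 and -0.21 and a mean of -0.58 (standard error 0.23, n = 3 weeks, adjusted p = 0.993 by limma). Relative to similar brightness the differences were -0.88, -0.25 and -0.16. Rpl5 has no probe set of its own symbol among the members.

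Rpl37a, a zinc-binding 60S protein, was read by 3 probe sets, all lower at every week. The first went from 11910 to 9106 (control to high-fat) at week 2, from 25780 to 15740 at week 4 and from 12400 to 10490 at week 10. The second, the brightest on average, went from 14320 to 12100, from 23550 to 14980 and from 16930 to 13150. The last and dimmest probe set went from 1018 to 734, from 374 to 177 and from 884 to 779. Their mean differences were -0.45 (standard error 0.22), -0.42 (0.22) and -0.58 (0.24), and the last had an unadjusted limma p of 0.040 (adjusted p = 0.993). All 3 differences of each probe set remained negative relative to similar brightness.

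Rpl13a, which has a role in silencing inflammatory messages outside the ribosome, was read by 4 probe sets. Its brightest went from 18610 to 14930, from 25600 to 16650 and from 15430 to 12750 at weeks 2, 4 and 10. The mean difference was -0.40 (standard error 0.22), and relative to similar brightness it was -0.25, -0.04 and -0.19. The other 3 had mean differences of -0.40, -0.30 and -0.15. The dimmest of them was the exception at week 4, with 1754 and 2007.

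Rpl39, at the exit of the peptide tunnel, went from 897 to 534 at week 2 and from 509 to 317 at week 4, and from 834 to 1037 at week 10. On this dim probe set it was thus lower at the first 2 time points (-0.75 and -0.68) and higher at the last (0.31). A bright probe set that Rpl39 shares with another symbol, which is no member, had 0.10, -0.92 and 0.02. Rpl41, a very short basic peptide, had the lowest cytosolic difference of week 4 on a probe set that went from 18550 to 8154 (-1.19). Its brighter probe set went from 27780 to 18370 there (-0.60, and 0.02 relative to similar brightness). A dim probe set of Rpl41, at the floor on 3 arrays, had 167 and 281 at week 10, the largest higher cytosolic value of that week (0.75). Rpl27a went from 697 to 312 at week 4 on a dim probe set (-1.16), with 0.22 and -0.18 at weeks 2 and 10. A bright probe set that Rpl27a shares with other symbols, also no member, had 0.15, -0.41 and -0.19. Its value of week 4 was 0.09 relative to similar brightness.

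The ribosomal stalk recruits translation factors to the 60S subunit. Rplp0, its anchor, went from 11170 to 9028 at week 2, from 19040 to 14430 at week 4 and from 10440 to 12670 at week 10. Its differences were -0.31, -0.40 and 0.28, so they changed sign at week 10. The mean of -0.14 (standard error 0.23) had the opposite sign after loess on brightness and under quantile normalization (0.08 in both). Rplp2, which binds Rplp0 as a dimer with Rplp1, went from 10890 to 9735, from 18320 to 15650 and from 11320 to 6782. The difference of week 10 was -0.74, or -0.70 relative to similar brightness, opposite to that of Rplp0 on the same arrays. Rplp1 has no probe set of its own symbol.

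Among 40S proteins, Rps28 was lower at week 10 on all 3 of its probe sets. This small protein lies near the site where the message leaves the subunit. On its first probe set the signal went from 18180 to 16830 at week 2, from 22360 to 13900 at week 4 and from 24490 to 14310 at week 10. On the second it went from 13760 to 14780, from 21630 to 15220 and from 19100 to 9673, and on the third from 15430 to 15490, from 19950 to 12870 and from 23180 to 12120. The diets were thus close at week 2 and apart at weeks 4 and 10. The differences of week 10 were -0.78, -0.98 and -0.94, and -0.61, -0.90 and -0.82 relative to similar brightness. Those of week 4, -0.69, -0.51 and -0.63, were -0.15, 0.04 and -0.13 relative to similar brightness. The mean differences over the weeks were -0.52, -0.46 and -0.52, with standard errors of 0.23, 0.26 and 0.25 and a limma adjusted p of 0.993 each. The first had an unadjusted p of 0.048.

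Rps10, in the head of the 40S subunit, was read by 5 tested probe sets. The brightest went from 16820 to 16680 at week 2, from 27170 to 16580 at week 4 and from 24320 to 13550 at week 10 (-0.01, -0.71 and -0.84). The next 4 had differences of -0.03, -0.62, -0.52 and -1.22 at week 10, so all 5 were lower there, by unequal amounts. The probe set at -1.22, the lowest cytosolic value of that week, went from 1722 to 741. At week 4 the same probe set was the one most above its control among cytosolic members, from 4470 to 7292 (0.71), where the other 4 had -0.57 to -0.71. Rps7 had the second lowest value of week 10, on a probe set that went from 7961 to 3557 (-1.16), while the other went from 15870 to 13800 (-0.20). Rpl27 of the 60S subunit, read by 3 probe sets, had -0.29, -0.52 and -1.12 at week 10, all lower, against -0.35, 0.45 and 0.69 at week 2. Rps9 had -0.46 and -0.87 at week 10.

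Rps24 and the 60S protein Rpl35 also gave lower values at week 10 on every probe set above the floor on all arrays. The 4 of Rps24 had -0.47, -0.35, -0.30 and -0.43, and the 5 of Rpl35 -0.55, -0.20, -0.33, -0.20 and -0.36. A dim probe set of Rps24 with 229.5 and 292 at week 10 differed in direction (0.35). Rps14 and Rps15, each with 2 probe sets, lay between -0.14 and 0.05 at week 10. The lower values of week 10 were thus not common to all 40S proteins.

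**Figure D3:**
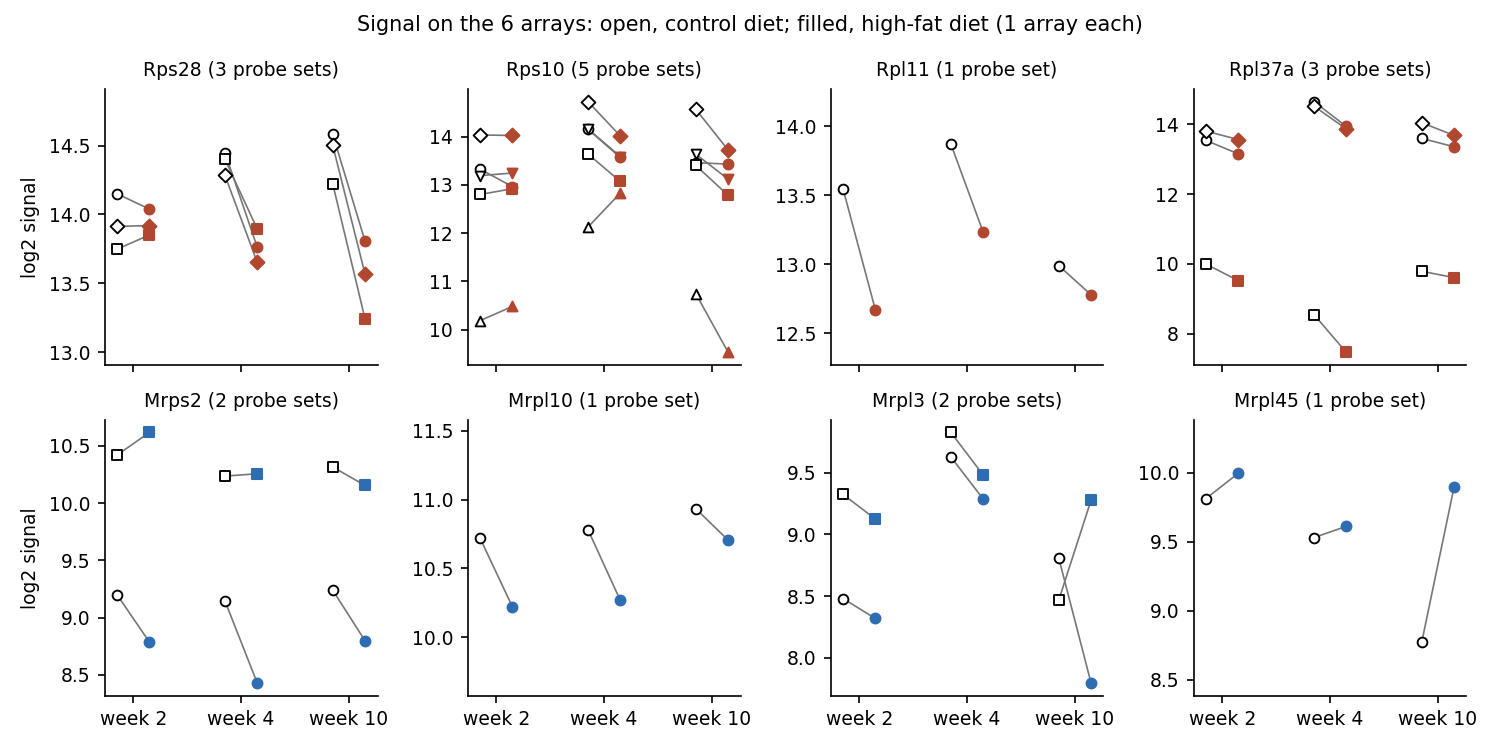
Log2 signal on each of the 6 arrays for 4 cytosolic (top) and 4 mitochondrial (bottom) genes; open symbols are control and filled symbols high-fat arrays, each marker shape is 1 probe set and a line joins the 2 arrays of a week. Week 4 was scaled separately, so levels are read within a week. The 3 probe sets of Rps28 separate at weeks 4 and 10, and the 2 of Mrpl3 cross at week 10.

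Rps3, at the entry of the message channel, went from 14670 to 9574 at week 2, from 17030 to 11470 at week 4 and from 14230 to 12060 at week 10. Its differences were -0.62, -0.57 and -0.24, all lower, with a mean of -0.48 (standard error 0.22). Rps6, the substrate of the S6 kinases downstream of mTORC1, was read above the floor by a dim probe set that went from 597 to 760.4 at week 2, from 513.5 to 664 at week 4, and from 646 to 508 at week 10. It was higher, higher and lower on the high-fat array (0.35, 0.37 and -0.35), with a mean of 0.12 that was -0.06 with the values as deposited. The brightest of the probe sets that Rps6 shares with a pseudogene symbol, which are no members, had -0.16, -0.66 and -0.04. Rps19, mutated in Diamond-Blackfan anaemia, had 0.28, -0.36 and -0.05. The other probe sets of 40S proteins lay within the ranges given for the group, from -0.62 to 1.52 at week 2.

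Paralogues of ribosomal proteins were compared with their partners. Rpl22, an RNA-binding 60S protein, went from 3181 to 2513 at week 2, from 7553 to 8524 at week 4 and from 3130 to 3310 at week 10 on its brighter probe set. Its dimmer one had 953 and 1709, 1068 and 1224, and 1092 and 1096. They disagreed at week 2 (-0.34 and 0.84) and were within 0.20 of 0 at the other weeks. Rpl22l1, its paralogue, had -0.55, 0.02 and -0.02. Rps27l, a p53 target, was lower at every week on all 3 of its probe sets, with mean differences of -0.29, -0.22 and -0.22. Relative to similar brightness, their differences of week 4 were 0.01, 0.35 and 0.34. Rps27, read by a dim probe set, had 0.25, -0.54 and 0.22. A bright probe set that Rps27 shares with the symbol Rps27rt, which is no member, was lower at every week (-0.19, -0.51 and -0.32). Rpl7 was lower at week 4 on its 3 probe sets (-0.48, -0.58 and -0.04) and disagreed at week 10 (0.02, 0.21 and -0.97). Rpl7l1 had -0.26, 0.00 and -0.39 on one probe set and -0.31, 0.38 and 0.10 on the other. Rps4x, encoded on the X chromosome, had -0.14, -0.56 and -0.31. Rps4l, a gene similar to Rps4x, had the largest higher value of all cytosolic members, from 219.9 to 632 at week 2 (1.52). It had 985 and 1053 at week 4 and was at the floor on both arrays of week 10. Rpl3l and Rpl39l were at the floor on all 6 arrays, and Rpl3 has no probe set of its own symbol.

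Whether several probe sets of a gene gave the same direction was counted over the members above the floor on all arrays. Of 61 pairs of probe sets of the same cytosolic gene (19 genes, 55 probe sets), 63.9% had the same sign at week 2, 77% at week 4 and 90.2% at week 10. Of 41 mitochondrial pairs (22 genes, 52 probe sets), 46.3%, 48.8% and 36.6% had the same sign. The range between the probe sets of a cytosolic gene was 0.28 in the median at week 10, and 0.58 for a mitochondrial gene. Among mitochondrial pairs the same sign was thus no more common than the opposite one. Of all 77 cytosolic members above the floor on all arrays, 53, 67 and 58 were lower at weeks 2, 4 and 10. Cytosolic probe sets of different genes thus often share a sign too. The share was not counted over pairs of all genes, and pairs with a probe set in common are not independent.

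**Figure D4:**
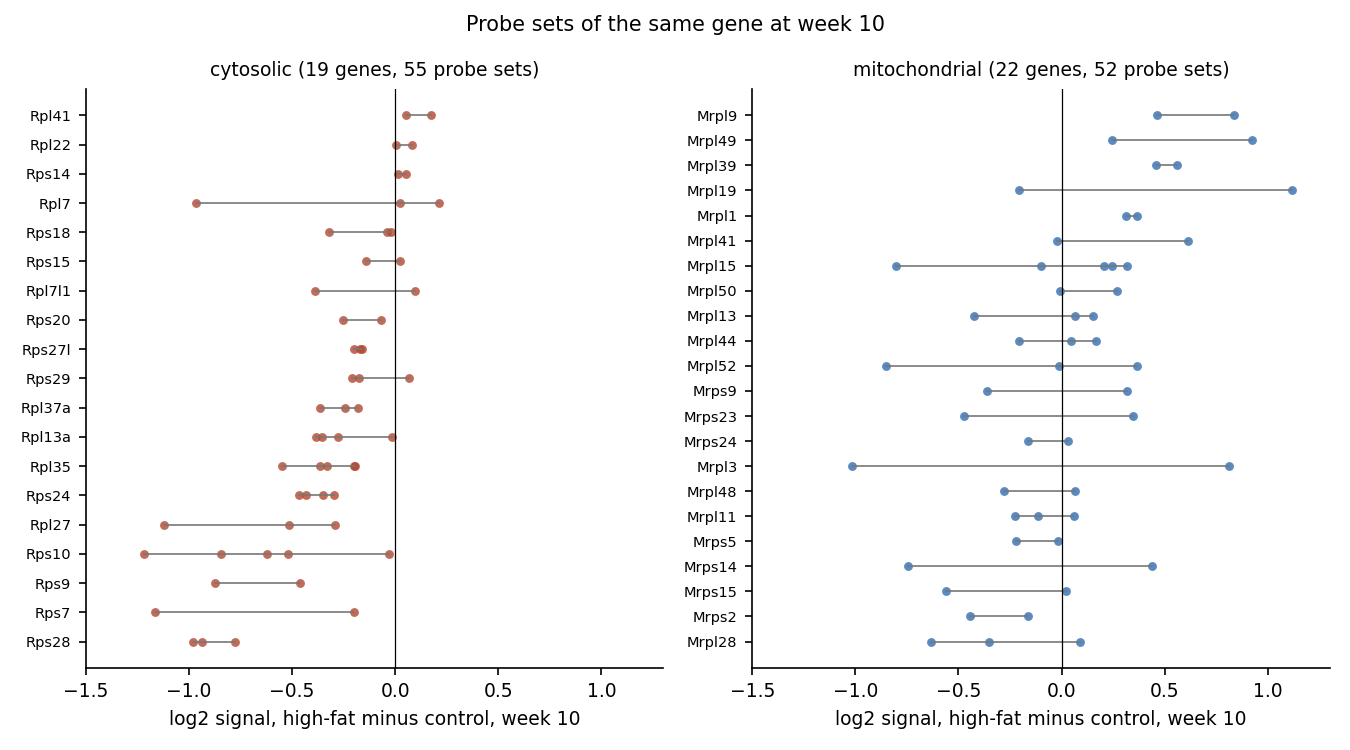
Difference between the diets at week 10 (log2 signal, high-fat minus control) for genes with at least 2 probe sets above the floor on all arrays; points are probe sets, lines join those of 1 gene, and genes are ordered by their median. Cytosolic genes lie mostly to the left of 0 with all their probe sets, while many mitochondrial genes, Mrpl3 with the widest range, lie on both sides.

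The cytosolic probe sets are also of a particular kind. Of the 83, 67 (80.7%) have a name ending in _s_at, _x_at or _a_at, against 49 of 112 mitochondrial ones. These endings mark probes that can bind several transcripts, which for _a_at can be those of 1 gene. The endings were not counted separately. Ribosomal protein genes have many processed pseudogenes, and signal from related transcripts was not told apart on these probe sets. The 67 had medians relative to similar brightness of -0.14, 0.00 and -0.17 at weeks 2, 4 and 10. The 16 others, of 15 genes, had 0.00, 0.00 and 0.06. These 16 are also much dimmer in the median (log2 signal on the control array of week 2 of 9.54 against 13.41), and only 11 of them were above the floor on all arrays. The lower cytosolic medians thus rest on the probe sets with shared names, most of them bright. Among the 16, those of Rps15, Rpl19, Rpl27, Rplp0 and Rpl22 are bright too. Relative to similar brightness these had -0.01, 0.01, -0.36, -0.30 and -0.37 at week 2. At week 10 they had 0.07, -0.02, -0.21, 0.35 and 0.10. With so few, the parts of name type and brightness were not told apart. Another 94 tested probe sets, which carry several symbols with at least 1 ribosomal protein among them, are no members. Their medians were -0.13, -0.44 and -0.11, and -0.10, -0.02 and -0.02 relative to similar brightness, so at week 10 they lay close to other probe sets as bright.

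Genes with and without a feature of the printed start regions were set side by side, each by its brightest tested probe set. The 16 cytosolic genes with a run of at least 8 C or T had medians relative to similar brightness of -0.15, 0.00 and -0.22 at weeks 2, 4 and 10, and the 21 without -0.15, -0.02 and -0.11. For the 8 genes with TCGCGAGA, Rps28 among them, they were 0.02, 0.02 and -0.25, and for the 29 without -0.16, -0.02 and -0.14. For CCGGAAG they were -0.15, 0.00 and -0.13 in 19 genes with it and -0.19, -0.03 and -0.20 in 18 without. These differences are within the spread between genes and have no test.

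Of the 17 mitochondrial probe sets lower at all weeks, 1 was of Mrps2, a protein of the 28S subunit. On it the signal went from 588 to 441 at week 2, from 567 to 344 at week 4 and from 604 to 445 at week 10. It was lower each time, by -0.41, -0.72 and -0.44, with a mean of -0.53 (standard error 0.22) and an unadjusted limma p of 0.036 (adjusted p = 0.993). The brighter probe set of Mrps2 had 1370 and 1572, 1206 and 1224, and 1275 and 1140, with a mean difference of 0.02.

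Mrpl10, the anchor of the stalk of the 39S subunit, went from 1687 to 1195, from 1761 to 1234 and from 1956 to 1670 at weeks 2, 4 and 10. It was lower at each week, by -0.50, -0.51 and -0.23, with a mean of -0.41 (standard error 0.21, limma adjusted p = 0.993), and has no other tested probe set. Mrpl12, the protein that Mrpl10 anchors, had 0.22, -0.10 and -0.37. Mrps21 went from 1295 to 1142, from 1770 to 1398 and from 1396 to 1083, lower each time. Mrpl15 was lower at each week on 1 of 5 tested probe sets, from 2800 to 2391, from 4013 to 3031 and from 3315 to 1900, and the other 4 had mean differences of -0.11 to 0.05. Mrps12, a protein of the decoding centre, had -0.07, -0.07 and -0.20.

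Higher relative to similar brightness at every week, and above the floor on all arrays, were 12 mitochondrial probe sets. The share over all tested probe sets was not counted, so this number is not read as many or few. The 4 whose smallest value was largest were of Mrpl1, Mrps9, Mrpl50 and Mrpl44. Mrpl1, of the L1 stalk, went from 379.6 to 447 at week 2, from 228.5 to 379 at week 4 and from 299 to 385 at week 10 on 1 probe set (mean difference 0.44, standard error 0.22). Another of Mrpl1 had -0.62, 0.09 and 0.31. Mrps9 went from 246 to 425, from 547 to 579 and from 329 to 409.5 on 1 probe set (mean 0.40). The remaining 3 of Mrps9 had mean differences of 0.37, -0.11 and -0.10, and that with 0.37 was at the floor on the control array of week 10, where its difference was at least 1.28, the largest of the mitochondrial members. Mrpl44, a protein with the fold of an RNase III, was higher at every week on 2 of its 3 probe sets (means of 0.31 and 0.16) and lower at every week on the third (-0.24). Mrpl50 had 0.21 on a dim probe set and -0.29 on a bright one.

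At week 10 the largest mitochondrial differences between arrays above the floor were those of Mrpl45 and Mrpl19 (higher) and Mrpl3 and Mrpl33 (lower). Mrpl45, which lies at the tunnel exit and holds the ribosome to the inner membrane, went from 900 to 1022 at week 2, from 739 to 782.5 at week 4, and from 437 to 954 at week 10. The difference of week 10 was 1.13, and the control array of that week was the lowest of the 4 arrays of weeks 2 and 10. Mrpl3 had 449 and 222 at week 10 on 1 probe set (-1.02) and 354 and 621 on another (0.81), while both were lower at weeks 2 and 4 (-0.16 to -0.35). Mrpl19 had 167 and 361 at week 10 (1.12) on a shared probe set and 246 and 213 (-0.21) on another. The mean difference of the first, 0.29, was -0.05 with a floor at the 60th percentile. Mrpl33 was lower at week 10 on both its probe sets (-0.90 and -0.67), and Mrpl39 higher on both (0.46 and 0.56). Mrpl9 was also higher there on both (0.46 and 0.83) after lower values on both at weeks 2 and 4.

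At week 2, Mrpl57 had the lowest mitochondrial difference on a probe set that went from 321.5 to 173 (-0.89), and its brighter one went from 1590 to 1410. Mrpl21 had 210.3 and 346 there (0.72), on a probe set at the floor at week 4, and 827.5 and 801 on its brighter one. At week 4, Mrps11 went from 1028 to 625 (-0.72), and Mrpl13 had 723 and 996.5 on 1 of 3 probe sets (0.46), where the brightest had 2629 and 2441. For Mrpl57, Mrpl21 and Mrpl13 the brighter probe set gave the smaller difference.

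Time was compared within a diet between weeks 2 and 10, whose arrays share a design and a table. The cytosolic median of week 10 minus week 2 was 0.06 for the control and 0.02 for the high-fat diet, and the mitochondrial median -0.08 and 0.02. At least 1.5-fold higher at week 10 were 4 cytosolic and 8 mitochondrial probe sets on the control diet, beside 12.2% of all tested, and 6 and 14 on the high-fat diet, beside 20.3%. At least 1.5-fold lower were 2 and 8 on the control diet, beside 10.4% of all, and 11 and 15 on the high-fat diet, beside 14.6%. Each of these counts is a smaller share of its group than that of all tested probe sets, with no test of the difference. These comparisons use the same arrays as the diet comparisons.

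Genes that build and use the ribosome were taken from lists. Of 51 tested genes of ribosome biogenesis, which make ribosomal RNA and assemble subunits in the nucleolus, 39 were lower on the high-fat array of week 10 with a median of -0.48, beside 0.01 for all tested. At least 1.5-fold lower were 17 of 51, where 13.6% of all tested probe sets were, and 1 was higher. At weeks 2 and 4 the medians were -0.01 and -0.04, with 2 and 0 genes at least 1.5-fold lower. The mean log2 level of the list was 9.19 (control) and 9.21 (high-fat) at week 2 beside 9.42 and 8.96 at week 10, so the control array was above and the high-fat array below both of week 2. None of the 51 was called by limma over the 3 weeks (smallest adjusted p = 0.993, with 2 at an unadjusted p under 0.05). Relative to similar brightness the median of week 10 was -0.48 too.

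Rrs1, a factor needed for the large subunit, went from 971.5 to 176 at week 10 (-2.46), against 521 and 529.8 at week 2 and 464 and 796 at week 4. Nop56, a core protein of the particles that guide ribosomal RNA methylation, went from 593 to 200.2 at week 10 (-1.57). Its value on the control array of week 10 was above those of week 2 (323 for the control and 258 for the high-fat diet). Nle1 and Nop2, which act in large subunit maturation, went from 542 and 523 to the floor, with differences of -1.81 and -1.76 that are bounds, since lower values were set to the floor. Polr1b, a subunit of RNA polymerase I, had -1.36 and Utp18 of the small subunit processome -1.03. The abundant nucleolar proteins Npm1 and Ncl went from 3796 to 2484 (-0.61) and from 3656 to 2449 (-0.58). Fibrillarin (Fbl) had -0.14, and Wdr12 (0.64), Gar1 (0.55) and Pes1 (0.44) were higher on the high-fat array. Most of the list and most cytosolic ribosomal proteins were lower on the high-fat than on the control array of week 10. Markers of macrophages, lymphocytes, neutrophils, endothelial and stellate cells were mostly higher between the same arrays. The macrophage level of that control array was below both of week 2. The part of cell makeup and of the control array in this was not tested.

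**Figure D5:**
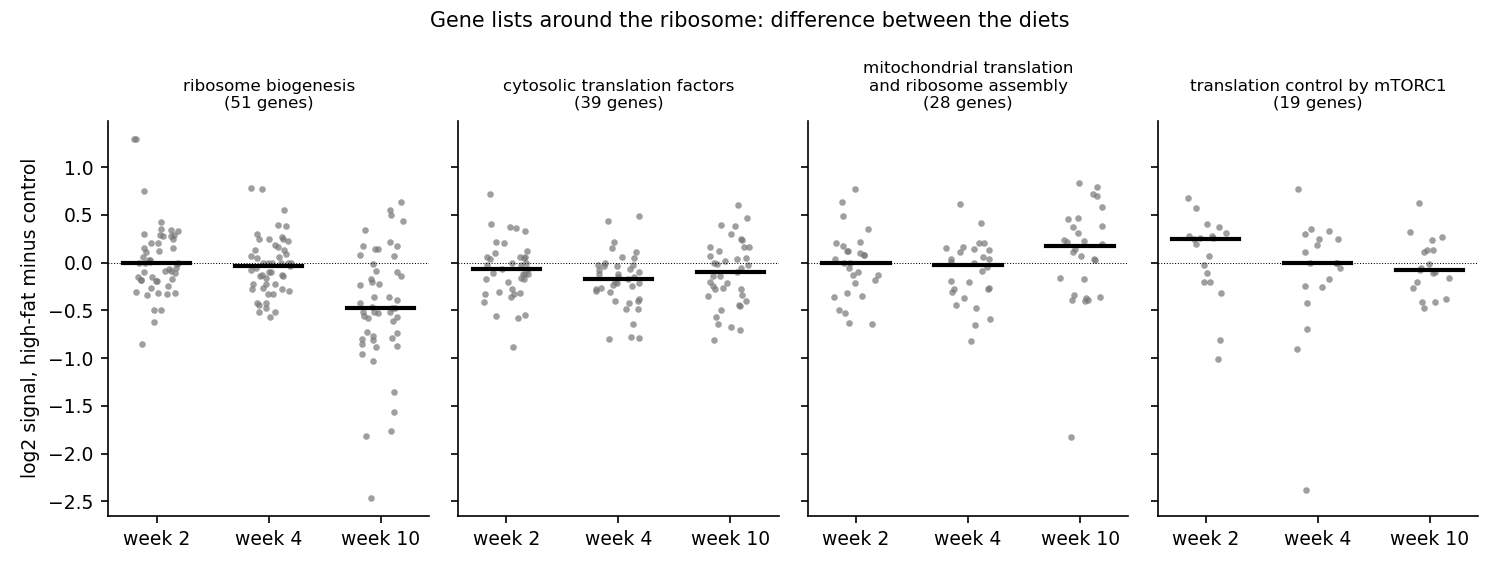
Difference between the diets (log2 signal, high-fat minus control) at weeks 2, 4 and 10 for the tested genes of 4 lists; points are genes, each by its brightest probe set, and bars are medians. The ribosome biogenesis list lies at -0.48 at week 10 and near 0 before, while the medians of the other lists lie between -0.17 and 0.25.

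Other lists had smaller medians at week 10. The 39 cytosolic translation factors had medians of -0.07, -0.17 and -0.10 at weeks 2, 4 and 10, or -0.06, -0.03 and 0.00 relative to similar brightness. The 28 genes of mitochondrial translation and ribosome assembly, with the member Mrpl58 in the list, had -0.01, -0.03 and 0.17. Higher at week 10 were 19 of 28. Among them Dap3, a 28S protein under another symbol, had 631 and 1035 at week 10 (0.71) and Noa1, an assembly GTPase, was lower at every week (-0.63, -0.82 and -0.40). The 19 genes of translation control by mTORC1 had 0.25, 0.00 and -0.07. Ddit4, an inhibitor of mTORC1, went from 833 to 413 at week 2 and from 1086 to 208 at week 4 (-1.01 and -2.39), with 301 and 361 at week 10. Eif4ebp1, the repressor of cap-dependent translation, had 0.57, 0.24 and -0.05. Subunits of oxidative phosphorylation, some of which the mitochondrial ribosome makes, had -0.11, -0.39 and 0.02 in 39 genes encoded in the nucleus, and -0.11, -0.07 and 0.07 relative to similar brightness. Proteasome subunits had -0.03, -0.15 and 0.11 in 31 genes. No gene of these lists was called by limma (smallest adjusted p = 0.993), with 1 gene at an unadjusted p under 0.05 in each of the first 3 lists and 0 in the others.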

How the data were processed

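The deposited values are linear signal intensities per probe set, scaled by the authors to a trimmed mean near 500 over all probe sets of its own design on each array but that of the control diet at week 2 (800.3). Over the shared probe sets, those of week 4, on the larger design, have 1079 and 1045. They were summarized with software not given in the sources used here. Gene symbols come from the platform annotation. All 226 members matched RefSeq with unchanged symbols.

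From these intensities, 22626 shared probe sets were used after 64 controls were left out. Each array's log2 values were shifted to a common median, taken over probe sets that no array has at the floor. The floor is the pooled 40th percentile, 7.27 in log2 units, and replaces lower values. Probe sets above it on at least 3 arrays entered limma 3.58.1 (R 4.3.3, functions lmFit and eBayes), with diet and week as terms and Benjamini-Hochberg adjustment at 0.05. Its error is how much the diet difference varied from week to week, moved by eBayes towards a value pooled over all tested probe sets. The standard errors given can thus differ from a probe set's own variation. Mrps18a, with differences of 0.0045, 0.0089 and 0.0318 at weeks 2, 4 and 10, has one of 0.2108. The number of arrays limits the precision.

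Members and lists were chosen with earlier results of these data known. Named are members of fixed interest and paralogue pairs, up to 4 probe sets per group and direction with 1 sign relative to similar brightness at all weeks, and the 2 largest differences per group, week and direction. Rps28, Rpl27, Rps9, Rps24, Rpl35, Rps14, Rps15, Mrpl39, Mrpl49 and the genes named from lists were chosen after their values were seen. Lists count each gene by its brightest probe set. Alternatives tried were quantile normalization, the uncentred deposited values, loess on brightness, other floors, no filter, 1 probe set per gene, no shared probe sets, no week block, eBayes with trend and robust, leaving out each week and other neighbour counts. Added after the data were seen were probe sets above the floor on all arrays and neighbours without shared ribosomal probe sets.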

Additional observations from a re-analysis of the deposited data

Results flagged for a closer look

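Above the floor on all 6 arrays, 5 of 180 members (2.78%) were at least 1.5-fold higher at 1 week and at least 1.5-fold lower at another, beside 519 of 9456 other probe sets (5.49%). With 1 array per diet and week, these differences between weeks were not tested. A probe set of Rps10 with a shared name had 0.7062 at week 4 and -1.2165 at week 10, and one of Rpl27 had 0.6886 at week 2 and -1.1227 at week 10. That of Rps9 had 0.6018 at week 2 and -0.8735 at week 10. In the mitochondrial group, a probe set of Mrpl9 had -0.8271 at week 2, -0.6390 at week 4 and 0.8347 at week 10, and one of Mrpl49 had -0.6871 at week 4 and 0.9236 at week 10.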

How the results depend on the processing

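Cytosolic medians relative to similar brightness at weeks 2 and 10 kept their sign in all alternatives but one. Without the probe sets of shared names, which then also leave the neighbours, they were 0.030 and 0.035 at these weeks, and the plain cytosolic medians were -0.0096, -0.0003 and 0.027 at weeks 2, 4 and 10, with a mitochondrial median of -0.15 at week 2 and, relative to similar brightness, of -0.11 at week 2 and 0.0071 at week 10. Counts at least 1.5-fold lower were then 1, 3 and 0 cytosolic at weeks 2, 4 and 10 and 3, 4 and 5 mitochondrial, and higher 1, 0 and 1 cytosolic and, at weeks 2 and 10, 1 and 7 mitochondrial. Uncentred deposited values, in which the control array of week 2 is scaled above its high-fat array, gave medians of -0.81 cytosolic and -0.71 mitochondrial at week 2 and -0.025 mitochondrial at week 4. The lower counts were 62 and 11 cytosolic at weeks 2 and 4 and 71 and 4 mitochondrial, and the higher counts 1 cytosolic and 0 mitochondrial at week 2 and 0 cytosolic at week 10. Rps20 and Rps6 then turned to -0.12 and -0.0645. Under quantile normalization the cytosolic median of week 4 was 0.00 with 5 lower, and after loess -0.0004 with 5 lower and 3 lower at week 2, and Rplp0 turned to 0.081 in both (0.0809 and 0.0805). At the 20th percentile floor there were 7 and 4 higher cytosolic probe sets at weeks 2 and 10, and 2 higher and 12 lower mitochondrial ones at week 4. At the 60th there were 0 higher cytosolic ones at week 10, 2 higher and 3 lower mitochondrial ones at week 2, 0 higher at week 4 and 7 at week 10, the mitochondrial relative median of week 4 was -0.10, and Mrpl19 turned to -0.052. With no filter the relative medians were -0.027 cytosolic and -0.0082 mitochondrial at week 2 and 0.00 mitochondrial at week 4, where its plain median was -0.012. With the brightest probe set per gene, the cytosolic counts were 1, 0 and 0 higher and 3, 15 and 3 lower at weeks 2, 4 and 10, and the mitochondrial ones 1, 0 and 7 higher and 3, 4 and 6 lower. The mitochondrial median was then -0.11 at week 2, and relative to similar brightness -0.10 and -0.11 at weeks 2 and 4. Over probe sets above the floor on all arrays, that of week 4 was -0.10 and 0 cytosolic ones were higher at week 10. The number called among all probe sets was 10 as deposited, 1 with trend and robust, and 0 with quantile normalization, loess, either other floor, no filter, no shared probe sets or no week block. It was 0 to 9 when a week was left out, 9 without week 2, 0 without week 4 and 6 without week 10, and no member was called. The other 202 values of the groups kept direction and size, and the cause of the changes was not tested. The test pairs the diets by week; no block by replicate number could be added, since each diet and week has 1 array. Signal near the floor limits the dim mitochondrial probe sets.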

Other observations

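The larger array of week 4 holds members that the smaller one lacks, for which no other week was measured. Of 6 such cytosolic probe sets, 3 were above the floor on both arrays, of Rpl22, Rpl7l1 and Rps19bp1, which encodes a protein that binds Rps19. Their median difference was 0.28, with 2 of 3 higher under the high-fat diet. Of 29 mitochondrial probe sets, 6 were above the floor on both arrays, of Mrpl9, Mrpl27, Mrpl44, Mrps6, Mrps10 and Mrps27, with a median of 0.01 and 3 in each direction. The median over all 2954 such probe sets of the larger array was 0.03.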
